A study of Mus musculus with 8 samples.

Results

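Amino acid transporter genes are described here in islets of the mouse pancreas, small clusters of endocrine cells that release insulin, glucagon and other hormones. The members are all genes of the deposited table whose symbol begins with Slc1a, Slc3a, Slc6a, Slc7a, Slc36a, Slc38a or Slc43a followed by a number. This rule found 40 of 14126 genes. Of these, 38 are transporter genes or their subunits, and 2, Slc6a19os and Slc7a6os, are named for lying on the opposite strand of a transporter gene. GENCODE lists 63 protein-coding genes in the 7 families, and the 25 others were not analysed here.

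The islets came from mice of the NOD/ShiLtJ strain, in which T cells destroy beta cells with age, and the mice were 7 weeks old. Bulk RNA sequencing covered 4 libraries labelled WT, genotype IRE1αfl/fl, and 4 labelled KO, genotype IRE1αβ-/-. IRE1α, encoded by Ern1, is a sensor of stress in the endoplasmic reticulum (ER), and the KO label names its loss from the insulin-secreting beta cells. The tamoxifen protocol, 10 mg/ml injected into the abdomen on 5 days in a row to switch on Cre recombinase, is the same in the records of both groups. The labels name neither the Cre transgene nor its promoter. Islets were freed with collagenase, banded on a density gradient and hand-picked. The series' design text gives 4 mice per group.

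Amino acids cross membranes through carriers that differ in the energy they use. SLC1, SLC6, SLC36 and SLC38 carriers couple uptake to sodium or proton gradients and can concentrate their substrates, whereas many SLC7 carriers are exchangers that trade one amino acid for another. The SLC7 light chains reach the cell surface only when bound by a heavy chain of the SLC3 family. In many cells, amino acid shortage or ER stress raises the transcription factor ATF4, which acts on amino acid transporter genes, and in islets amino acids stimulate the secretion of insulin and glucagon.

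Values are normalized read counts, deposited as whole numbers. They sum to between 32024139 and 34858983 per library, but sequencing depth is unknown. Libraries 1 and 2 of each label stood apart from libraries 3 and 4: of 25 immediate early genes, which respond to handling within minutes, 23 were higher in libraries 3 and 4, where their summed value was 207003 to 390331, against 12846 to 31521 in libraries 1 and 2 (Fosl1 and Egr3 were listed at 0 in at least 1 library). Over all genes tested, 9.38% were higher in libraries 3 and 4. Between labels 11.1% were higher and 9.81% lower in KO than in WT (limma-trend, adjusted p under 0.05). Of 14 beta cell markers 11 were lower in KO, and their summed value was 5476933 to 6132193 in WT and 2595420 to 3568082 in KO. Of 16 alpha cell markers 12 were higher and 1 lower (summed value 440849 to 1081288 in WT and 1966219 to 2674318 in KO). Of 24 markers of acinar cells, which make digestive enzymes, 2 were higher and 1 lower, with a median log2 fold change of 1.60 (summed value 36186 to 414237 in WT and 215903 to 639380 in KO). The higher count was 8 with the replicate block, 14 with the library set as a term and 21 in the authors' deposited table (14.2%, 17.0% and 16.2% of all genes). Of 10 delta and PP cell markers 9 were higher, of 13 ductal markers 5, and of 15 macrophage markers 1, and of 6 lymphocyte markers 1 was lower. Of 14 stellate cell markers 1 was higher, and 9 with the replicate block, with the library set as a term and in the authors' deposited table (median log2 fold change of 0.99, summed value 13973 to 22218 in WT and 22196 to 36796 in KO). Fits with the acinar level as a covariate are given below, and the part of the other cell types in the results was not tested. None of the beta, alpha, acinar or stellate markers measured was at 0 in any library. Ern1 itself had values of 5549, 5164, 4622 and 4500 in WT and 7223, 7390, 6922 and 7216 in KO, so its total over all exons was higher in libraries labelled KO; which exons were deleted is not stated in the labels, and this total does not check the labels.

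Across the 38 transporter genes, 8 were higher and 4 lower in KO than in WT, and 26 did not pass the test (limma-trend, adjusted p under 0.05 over all genes, referred to below as called). The higher genes were Slc7a3, Slc7a11, Slc38a5, Slc1a1, Slc1a5, Slc7a1, Slc6a17 and Slc7a8, in falling order of log2 fold change. The lower ones were Slc6a19, Slc7a4, Slc38a10 and Slc36a1. The shares, 21.1% higher and 10.5% lower, compare with 11.1% higher and 9.81% lower among all 14121 genes tested. The median log2 fold change was 0.30 over the 38 genes and -0.0008 over all genes tested. Every KO value lay above every WT value for 9 transporter genes and below for 6, where the shares over all genes are 13.6% and 12.3%.

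**Figure D1:**
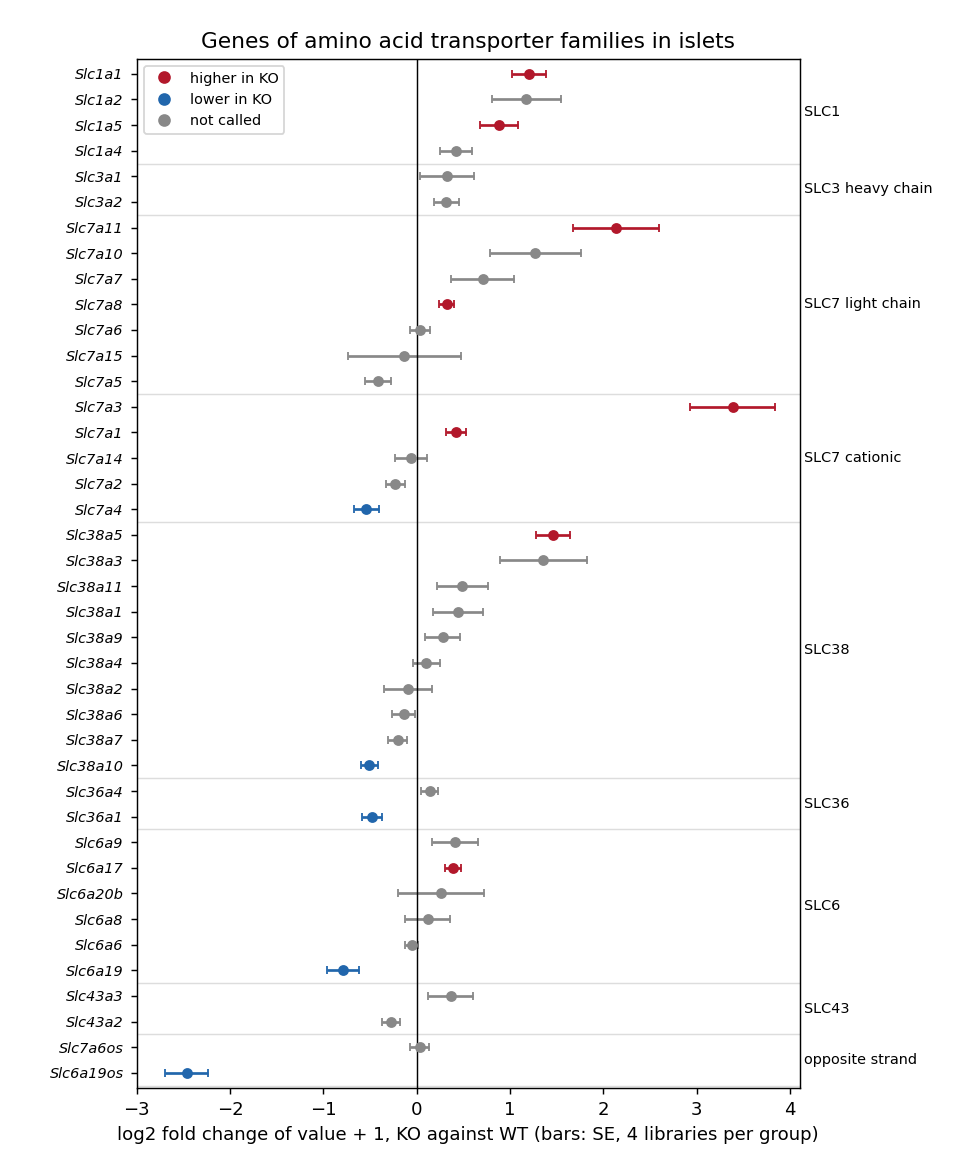
Log2 fold change of KO against WT, on the log2(value + 1) scale, for the 40 members grouped by family, with bars for the standard error (4 libraries per group). Red points are the 8 genes called higher, blue points the 4 transporter genes and Slc6a19os called lower, and grey points those not called.

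In libraries 1 and 2 alone, 8 transporter genes were called higher and 6 lower, and in libraries 3 and 4 alone 7 and 2. Among all genes the shares were 12.2% and 10.8% in the first set, and 11.4% and 11.4% in the second. With the library set as a term, 13 were higher and 6 lower, against 17.0% and 14.9% of all genes. Of the 12 genes, 11 were called in libraries 1 and 2 alone, 7 in libraries 3 and 4 alone and 6 in both. The fold changes had the same sign in both sets for 12 of 12. This was fixed in advance, since the WT and KO values of these genes do not overlap. With the mean acinar marker level as a covariate 4 were called higher and 3 lower (7.78% and 7.11% of all genes), and 5 of the 12 remained: Slc7a3, Slc38a5, Slc1a1, Slc38a10 and Slc36a1. With the replicate number as a block 12 of 12 remained called (a fit in which 14.2% of all genes were higher and 11.7% lower), joined by Slc1a2, Slc38a3, Slc3a2 and Slc43a3 (higher) and Slc7a5 and Slc43a2 (lower). The authors' deposited table called 14 higher and 5 lower at an FDR under 0.05, a table in which 16.2% of genes were higher and 13.1% lower. The values are those of whole islets, in which fewer cells of a type and less RNA per cell cannot be told apart.

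The heavy chain of most SLC7 dimers is encoded by Slc3a2 (ENSMUSG00000010095, GRCm38 chromosome 19, 8706882 to 8723369, minus strand), also known as CD98. Slc3a2 values were 3157, 3075, 4229 and 4555 in WT replicates 1 to 4 and 4229, 4496, 4848 and 4900 in KO replicates 1 to 4. WT replicates 3 and 4 lay at or near the KO range and WT replicates 1 and 2 below it. The difference, a log2 fold change of 0.32 ± 0.14, was not called (adjusted p = 0.132). It was called in 5 of 20 alternatives, among them the replicate block (adjusted p = 0.0443) and the authors' deposited table (FDR of 0.0131). With the acinar covariate it was 0.09 (adjusted p = 0.655). Libraries 1 and 2 alone gave 0.48 (adjusted p = 0.0117), libraries 3 and 4 alone 0.15 (adjusted p = 0.260), and the interaction of label and library set had an adjusted p = 0.184. Slc3a1, encoding rBAT, the heavy chain of the cystine and dibasic amino acid transporter of kidney and gut, was low, with 37, 88, 45 and 72 in WT and 82, 73, 70 and 63 in KO, and the groups overlapped (log2 fold change of 0.32 ± 0.29, adjusted p = 0.470). It shares 601 of its 2271 exon bases with Prepl on the opposite strand, and whether reads were counted by strand is unknown.

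Among the 7 genes of the light chain group, 2 were higher, against 11.1% of all genes, and 5 were not called. Slc7a11 (ENSMUSG00000027737, chromosome 3, 49892526 to 50443614, minus strand) encodes xCT, which brings cystine into the cell in exchange for glutamate and so supplies cysteine for glutathione. Its values were 7, 12, 32 and 13 in WT and 58, 43, 88 and 77 in KO, so that even WT replicate 3, the highest of its group, lay below every KO library. The log2 fold change was 2.14 ± 0.46 (adjusted p = 0.0120). It was 1.60 with the acinar level as a covariate, where the call ended (adjusted p = 0.0753).

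Sequences upstream of the members were examined because part of the called genes are known ATF4 targets. RefSeq promoter windows (GRCm38.p6, 250 bases before to 50 after the start) were found for 30 of the 40 members, 43 windows in all. Slc7a3 was among the members without a window, so its promoter was not searched. The C/EBP-ATF response element, the sequence that ATF4 binds with C/EBP partners, was searched as TGATGNAAN on both strands. It was found in 4 of the 43 windows, of 3 members, Slc7a11, Slc1a4 and Slc7a7, where 3.95% of 32851 windows in the table held it. The Slc7a7 windows overlap and hold the same TGATGCAAC, so this site was counted in each of them. The Slc7a11 window holds 2 matches in opposite orientation, beginning 66 and 48 bases before the start. They are shown with 1 window each of Slc1a4, which has the match 5 bases before the start, and Slc7a7, which has matches 141 bases and 1 base before the start. Capitals mark the matches.
Slc7a11, chr3:50443564-50443863, minus strand: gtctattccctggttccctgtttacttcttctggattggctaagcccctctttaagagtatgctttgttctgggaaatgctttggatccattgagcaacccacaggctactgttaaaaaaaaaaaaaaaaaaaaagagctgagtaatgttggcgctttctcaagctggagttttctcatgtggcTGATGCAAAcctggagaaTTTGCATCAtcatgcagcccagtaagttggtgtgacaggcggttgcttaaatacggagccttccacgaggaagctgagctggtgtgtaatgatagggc
Slc1a4, chr11:20332664-20332963, minus strand: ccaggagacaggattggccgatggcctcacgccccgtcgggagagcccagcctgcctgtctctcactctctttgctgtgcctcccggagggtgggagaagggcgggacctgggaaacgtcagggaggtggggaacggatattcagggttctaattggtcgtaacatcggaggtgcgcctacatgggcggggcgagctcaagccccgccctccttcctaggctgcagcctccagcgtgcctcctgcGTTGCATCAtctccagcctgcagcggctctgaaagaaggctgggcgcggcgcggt
Slc7a7, chr14:54417895-54418194, minus strand: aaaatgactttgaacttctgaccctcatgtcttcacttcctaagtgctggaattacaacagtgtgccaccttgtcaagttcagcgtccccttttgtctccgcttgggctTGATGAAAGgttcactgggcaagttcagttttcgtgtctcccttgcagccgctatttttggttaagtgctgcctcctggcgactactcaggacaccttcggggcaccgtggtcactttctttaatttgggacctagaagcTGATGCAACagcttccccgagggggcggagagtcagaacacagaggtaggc
Of these 3 genes Slc7a11 was called higher, and Slc1a4 and Slc7a7 had log2 fold changes of 0.43 and 0.71 that were not called. The antioxidant response element, searched as TGACNNNGC, was in 7 of the 43 windows, of 5 members (Slc36a1, Slc38a2, Slc6a9, Slc7a1 and Slc7a6), against 12.4% of all windows. The unfolded protein response element TGACGTGG was in those of Slc7a6 alone (0.676% of all windows), where it lies within the antioxidant match. The Slc7a6 windows overlap and hold the same site, so it was counted in each of them for both elements. No member window held the ER stress response element or the oestrogen response element, searched in their full canonical form (in 0.119% and 0.0700% of all windows). A match is a description of the letters and not of binding.

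Slc7a8 (ENSMUSG00000022180, chromosome 14, 54722209 to 54781946, minus strand) encodes LAT2, an exchanger of neutral amino acids. Slc7a8 stood at 3085, 3126, 2891 and 3468 in WT and 4129, 4148, 3686 and 3753 in KO, a small difference without overlap (log2 fold change of 0.32 ± 0.08, adjusted p = 0.0212). Leaving out WT replicate 2, WT replicate 3, KO replicate 1 or KO replicate 2 ended that call, at adjusted p-values up to 0.0592, as did the acinar covariate (0.0514, with a log2 fold change of 0.36) and libraries 3 and 4 alone (0.166). Slc7a5, encoding LAT1, the exchanger that carries leucine and other large neutral amino acids, had 3095, 2883, 4252 and 2989 in WT and 2052, 2384, 2637 and 2794 in KO. Every KO library lay below every WT library, yet the log2 fold change of -0.41 ± 0.14 was not called (adjusted p = 0.0713). The replicate block gave a call (adjusted p = 0.0357), as did the acinar covariate, with -0.64 (0.0200), and the authors' deposited table, with an FDR of 0.00176.

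The other light chain genes were not called with 8 libraries. Slc7a10, encoding Asc-1, a carrier of small neutral amino acids and D-serine, ranged from 12 to 50 in WT and 49 to 125 in KO (log2 fold change of 1.27 ± 0.49, adjusted p = 0.0969). The KO maximum came from KO replicate 4, and libraries 1 and 2 alone gave a log2 fold change of 0.20, libraries 3 and 4 one of 2.34 (adjusted p = 0.0142; interaction adjusted p = 0.143). Slc7a10 was also called with the acinar covariate (1.94, adjusted p = 0.0385), and the authors' deposited table lists it with an FDR of 0.0288. It shares 377 of its 2111 exon bases with Lrp3 on the opposite strand. Slc7a7, encoding y+LAT1, ranged from 23 to 72 in WT and 57 to 84 in KO. Slc7a6, encoding y+LAT2, which exports arginine for glutamine, ranged from 774 to 1021 and 819 to 1006, with a 95% interval of the log2 fold change of -0.21 to 0.29. Slc7a15 ranged from 13 to 94 and 20 to 60, too wide a spread to set its direction (95% interval -1.50 to 1.24).

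Since a light chain works only with its heavy chain, the log2 ratio of each light chain gene to Slc3a2 was compared over libraries for 6 pairs. For Slc7a5 the ratio was -0.03, -0.09, 0.01 and -0.61 in WT replicates 1 to 4 and -1.04, -0.92, -0.88 and -0.81 in KO replicates 1 to 4, with every KO library below every WT library. It differed by -0.73 (two-sided exact permutation p = 0.0286, adjusted p = 0.0857 over the 6 pairs). For Slc7a11 the ratio was -8.62, -7.89, -7.00 and -8.35 in WT and -6.16, -6.68, -5.77 and -5.97 in KO, again without overlap, a difference of 1.82 (exact permutation p = 0.0286, adjusted p = 0.0857). With 4 libraries against 4 this p of 0.0286 is the smallest the test can give. Only these ratios of the 6 reached it, so adjustment could give no less than 0.0857. Neither could pass, and the test does not decide whether they differed. The ratios of Slc7a6, Slc7a7, Slc7a8 and Slc7a10 differed by -0.28, 0.39, 0.01 and 0.95, with overlapping groups (exact permutation p from 0.229 to 0.943). These ratios compare RNA of whole islets and say nothing of which cell makes each chain.

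**Figure D2:**
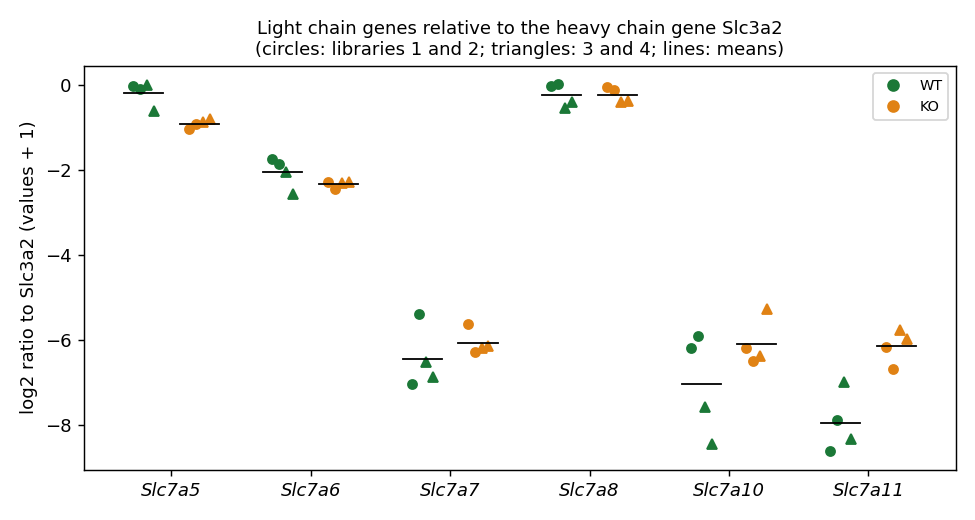
Log2 ratio of 6 light chain genes to the heavy chain gene Slc3a2 in each library (values + 1), with circles for libraries 1 and 2, triangles for libraries 3 and 4 and lines for the means of 4 libraries. The WT and KO points do not overlap for Slc7a5, lower in KO, or Slc7a11, higher in KO.

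The best-known products of the cationic amino acid transporter group carry arginine, lysine and ornithine without a heavy chain. Of its 5 genes 2 were higher and 1 lower, against 11.1% and 9.81% of all genes. Slc7a3 (ENSMUSG00000031297, chromosome X, 101079210 to 101086020, minus strand) encodes CAT3, a carrier better known from brain. Its 8 values were 9, 20, 31 and 8 in WT and 140, 108, 184 and 253 in KO, the lowest KO library lying well above the highest WT library. The log2 fold change of 3.39 ± 0.45 (adjusted p = 0.00134) was the largest of the 38 genes and was called under all 20 alternatives, between 3.10 and 3.73. Slc7a1 (ENSMUSG00000041313, chromosome 5, 148327410 to 148399904, minus strand), encoding CAT1, the widely expressed member, went from 1012, 986, 1139 and 849 in WT to 1179, 1297, 1388 and 1471 in KO (log2 fold change of 0.42 ± 0.11, adjusted p = 0.0244). Its groups did not overlap, and its call ended when WT replicate 2, KO replicate 3 or KO replicate 4 was left out (up to 0.0696), in libraries 1 and 2 alone (0.0758) and with the acinar covariate (0.116, with a log2 fold change of 0.36).

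Slc7a2, encoding CAT2, had 15187, 15465, 13944 and 12759 in WT and 13580, 11947, 12785 and 10740 in KO. The groups overlapped and the log2 fold change of -0.23 ± 0.10 was not called (adjusted p = 0.137). In WT its level per kb of exon, 1569.7 ± 136 (SD, n = 4), compared with 86.4 ± 10.3 for Slc7a1 and 4.49 ± 2.85 for Slc7a3. In KO the corresponding levels were 1342 ± 133, 116 ± 10.9 and 45.3 ± 16.6, so Slc7a3 remained the least abundant of these 3 genes. Slc7a4 (ENSMUSG00000022756, chromosome 16, 17572018 to 17583214, minus strand), a related gene whose product has no settled substrate, fell from 1070, 1249, 1014 and 798 in WT to 756, 762, 651 and 648 in KO (log2 fold change of -0.54 ± 0.14, adjusted p = 0.0236). Any of WT replicates 1, 2 and 3 and KO replicates 3 and 4 ended this call when left out (up to 0.0658), and so did the acinar covariate (0.136, with a log2 fold change of -0.37). Of its 4153 exon bases 554 are shared with P2rx6 on the opposite strand, whose values ranged from 33 to 48 in WT and 34 to 73 in KO. Slc7a14, whose product lies in internal membranes, had 15852, 15409, 10098 and 10330 in WT and 12746, 13723, 10506 and 11756 in KO, with libraries 1 and 2 above libraries 3 and 4 in each group (log2 fold change of -0.06 ± 0.17, adjusted p = 0.843).

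**Figure D3:**
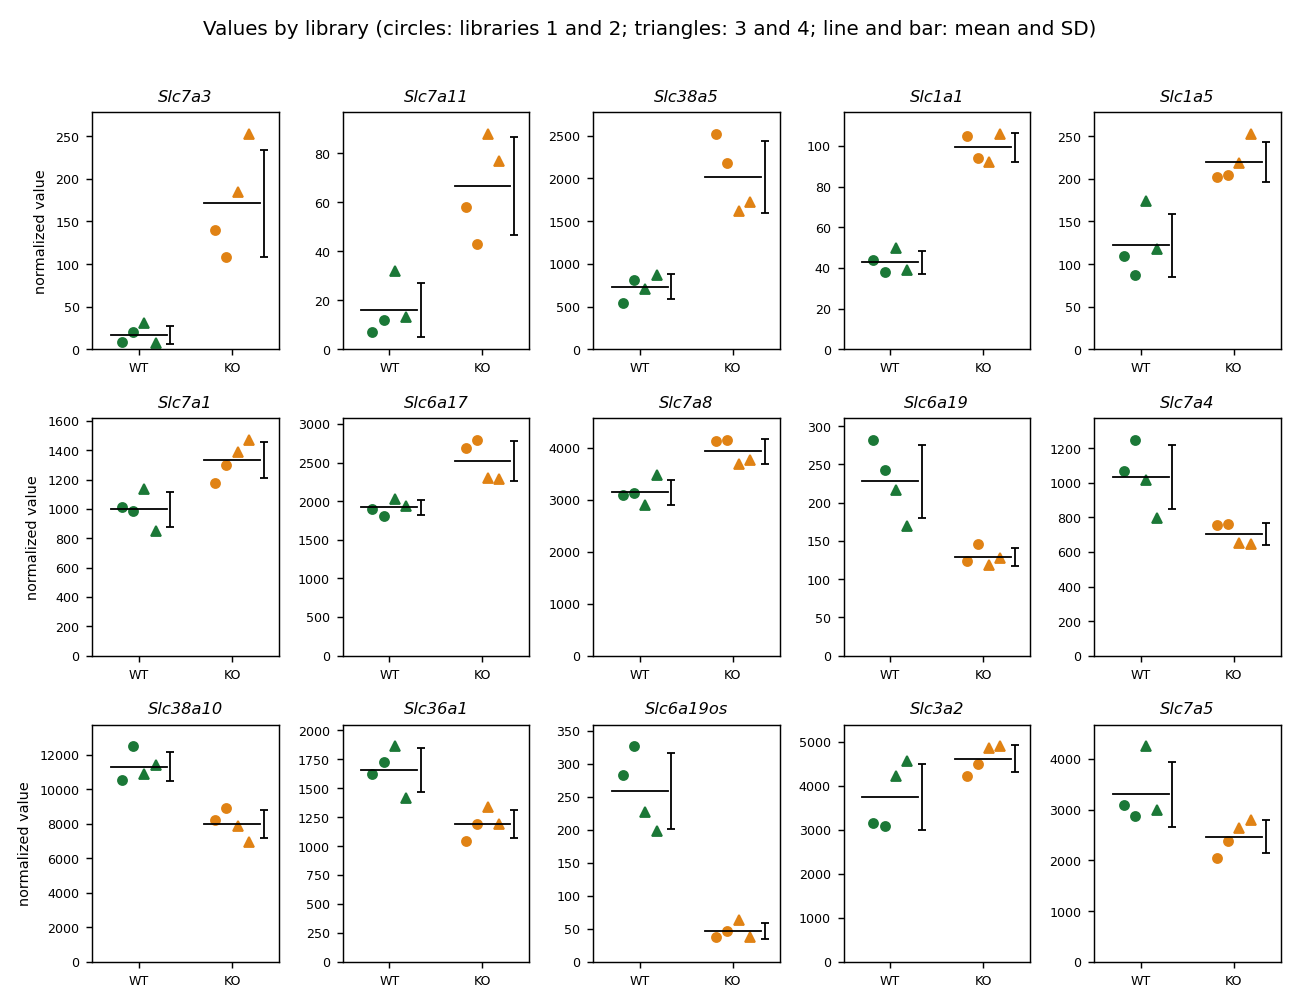
Normalized value of 15 genes in each of 4 WT and 4 KO libraries, with circles for libraries 1 and 2, triangles for libraries 3 and 4, a line for the mean and a bar for the SD; each axis starts at 0. The groups do not overlap for any of the 12 called transporter genes, for Slc6a19os or for Slc7a5, and they overlap for Slc3a2.

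All 4 measured SLC1 genes had positive log2 fold changes, as had 25 of the 38 transporter genes. Of the 4, 2 were called higher, against 11.1% of all genes tested. Slc1a1 (ENSMUSG00000024935, chromosome 19, 28835049 to 28913960, plus strand) encodes EAAT3, a carrier of glutamate, aspartate and cysteine. It read 44, 38, 50 and 39 in WT and 105, 94, 92 and 106 in KO, groups that were tight and far apart (log2 fold change of 1.20 ± 0.18, adjusted p = 0.00224), and was called under all 20 alternatives. Of its 8257 exon bases 2631 are shared with 4430402I18Rik on the opposite strand, and whether the counting used strand is not given. That gene had 49, 46, 55 and 52 in WT and 52, 84, 70 and 49 in KO and was not called (log2 fold change of 0.30 ± 0.23, adjusted p = 0.398).

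Slc1a5 (ENSMUSG00000001918, chromosome 7, 16781340 to 16798274, plus strand) encodes ASCT2, an exchanger best known for glutamine uptake. Libraries had 109, 87, 174 and 118 in WT and 202, 205, 219 and 253 in KO, with WT replicate 3 nearest to the KO group (log2 fold change of 0.88 ± 0.21, adjusted p = 0.0171). The call ended without KO replicate 4 (adjusted p = 0.0521), in libraries 3 and 4 alone (0.0552) and with the acinar covariate (0.0985, with a log2 fold change of 0.54). Slc1a4, encoding ASCT1, a carrier of alanine, serine and cysteine, ranged from 443 to 637 in WT and 543 to 899 in KO (log2 fold change of 0.43 ± 0.17, adjusted p = 0.111). It was called in 2 of 20 alternatives, the library set as a term (adjusted p = 0.0341) and the authors' deposited table (FDR of 0.0217). Slc1a2, encoding the glutamate carrier EAAT2 of astrocytes, ranged from 15 to 22 and 26 to 67, without overlap but not called (log2 fold change of 1.17 ± 0.37, adjusted p = 0.0524).

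Among the 10 measured SLC38 genes, whose products include the sodium-coupled glutamine and alanine carriers, 1 was higher and 1 lower. The shares over all genes tested were 11.1% and 9.81%. Slc38a5 (ENSMUSG00000031170, chromosome X, 8271133 to 8280179, plus strand) encodes SNAT5, a carrier of glutamine, asparagine, serine and glycine that is known from alpha cells and acinar cells. It had 540, 809, 700 and 872 in WT and 2522, 2183, 1619 and 1719 in KO, each KO library above each WT library (log2 fold change of 1.46 ± 0.18, adjusted p = 0.00101), and was called under all 20 alternatives. The sets alone gave log2 fold changes of 1.83 (libraries 1 and 2) and 1.09 (libraries 3 and 4; interaction adjusted p = 0.193), and 1.53 with the acinar covariate. The alpha cell markers moved in the same direction in KO, as given above (Slc38a5 and Slc7a2 are themselves on that list of 16), and their part in this difference was not tested. Slc7a2, the other transporter on the list, was not called.

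Slc38a10 (ENSMUSG00000061306, chromosome 11, 120103960 to 120151346, minus strand), a less studied member of the family, fell from 10519, 12505, 10885 and 11389 in WT to 8229, 8928, 7857 and 6955 in KO (log2 fold change of -0.51 ± 0.10, adjusted p = 0.00645), was called under all 20 alternatives and had no overlap. The family's most abundant gene was Slc38a4, encoding SNAT4, at 12775, 10719, 14731 and 15559 in WT and 12938, 12145, 16385 and 16287 in KO, groups that overlapped (log2 fold change of 0.10 ± 0.15, adjusted p = 0.664). Slc38a2, encoding SNAT2, a carrier that many cells induce when amino acids are short, had 3364, 3125, 5580 and 5168 in WT and 3218, 2772, 5220 and 5044 in KO. Its spread followed the library sets, not the labels, and its log2 fold change of -0.09 ± 0.26 was not called (adjusted p = 0.842), with a 95% interval of -0.68 to 0.50. Slc38a3, encoding SNAT3, ranged from 11 to 42 in WT and 33 to 79 in KO. Its log2 fold change of 1.35 ± 0.47 missed the threshold (adjusted p = 0.0700) and was called with the replicate block (adjusted p = 0.0194), while the acinar covariate gave 0.64 (0.374). Slc38a9, encoding the lysosomal arginine sensor of the mTORC1 pathway, ranged from 115 to 208 and 180 to 223 (log2 fold change of 0.28 ± 0.19). Slc38a7, a lysosomal glutamine carrier gene, ranged from 486 to 602 and 414 to 502 (log2 fold change of -0.20 ± 0.10). Slc38a1, Slc38a6 and Slc38a11 had log2 fold changes of 0.44, -0.14 and 0.49 and were not called.

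The SLC36 genes encode proton-coupled carriers of lysosomes and the cell surface. Slc36a1 (ENSMUSG00000020261, chromosome 11, 55204350 to 55236330, plus strand), encoding PAT1, fell from 1625, 1723, 1862 and 1417 in WT to 1045, 1190, 1335 and 1192 in KO, without overlap (log2 fold change of -0.47 ± 0.11, adjusted p = 0.0148). Its call ended in libraries 3 and 4 alone (adjusted p = 0.109). Slc36a4, encoding PAT4, ranged from 1362 to 1629 in WT and 1505 to 1822 in KO and was not called (log2 fold change of 0.14 ± 0.09, adjusted p = 0.297).

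The SLC6 family holds sodium- and chloride-coupled carriers of neurotransmitters and amino acids. Of its 6 measured genes 1 was higher and 1 lower, against 11.1% and 9.81% of all genes. Slc6a17 (ENSMUSG00000027894, chromosome 3, 107467543 to 107518018, minus strand) encodes NTT4, a carrier of neutral amino acids into synaptic vesicles. It had 1904, 1802, 2033 and 1940 in WT and 2691, 2794, 2296 and 2293 in KO, without overlap (log2 fold change of 0.39 ± 0.09, adjusted p = 0.0152), and its call ended in libraries 3 and 4 alone (0.135) and with the acinar covariate (0.0783, with a log2 fold change of 0.34). Slc6a19 (ENSMUSG00000021565, chromosome 13, 73679745 to 73704865, minus strand) encodes B0AT1, the neutral amino acid carrier of gut and kidney. Values fell from 282, 243, 217 and 169 in WT to 124, 146, 119 and 128 in KO, again without overlap (log2 fold change of -0.79 ± 0.17, adjusted p = 0.0119). The Slc6a19 call ended in libraries 3 and 4 alone (0.0550) and with the acinar covariate (0.0703, with a log2 fold change of -0.67).

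Slc6a19os (ENSMUSG00000021566, chromosome 13, 73699826 to 73709853, plus strand) overlaps the Slc6a19 gene on the other strand, but the annotated exons of the pair share no base. It fell further than any transporter gene, from 283, 327, 227 and 199 in WT to 37, 47, 64 and 38 in KO (log2 fold change of -2.46 ± 0.23, adjusted p = 2.69e-04), and was called under all 20 alternatives. Without known strandedness, reads from introns of either gene cannot be told apart. Slc7a6os, next to Slc7a6, ranged from 351 to 403 in WT and 340 to 425 in KO (log2 fold change of 0.03 ± 0.10, adjusted p = 0.857).

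The remaining SLC6 and SLC43 genes were not called. Slc6a6, encoding the taurine carrier, ranged from 10559 to 11672 in WT and 9952 to 10948 in KO, with a narrow 95% interval of the log2 fold change of -0.21 to 0.11. Slc6a8, encoding the creatine carrier, ranged from 527 to 1157 and 709 to 1031 (95% interval -0.43 to 0.66). Slc6a9, encoding the glycine carrier GlyT1, ranged from 62 to 125 and 108 to 137, and 1429 of its exon bases are shared with Ccdc24 on the opposite strand. Slc6a20b ranged from 16 to 55 and 24 to 55, and 1800 of its 8538 exon bases are shared with Sacm1l on the opposite strand, with values of 4158 to 4995 and 3232 to 3922. Any reads shared with its close copy Slc6a20a would add to this uncertainty. Slc43a2, encoding LAT4, which carries branched-chain amino acids and phenylalanine, ranged from 6055 to 8052 and 5524 to 6012, without overlap but not called (log2 fold change of -0.28 ± 0.10, adjusted p = 0.0841), and called with the replicate block (0.0393). The acinar covariate gave -0.12 (adjusted p = 0.431), and the authors' deposited table an FDR of 0.0541. Slc43a3, which carries purine bases and not amino acids, ranged from 393 to 585 and 445 to 864. Its log2 fold change of 0.36 ± 0.24 missed the threshold (adjusted p = 0.327) and was called with the replicate block (0.0424), while the acinar covariate gave 0.06 (0.890).

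To place these changes on the scale of expression, levels were set per kb of annotated exon. In WT islets Slc38a4 was the most abundant, at 3156 ± 507 (SD, n = 4), and its lowest WT library lay above the highest of any other transporter gene. Slc38a10 followed at 1764 ± 135, then Slc7a2 at 1569.7 ± 136, Slc7a14 at 1315 ± 319, Slc6a6 at 1290.2 ± 60.5 and Slc3a2 at 1064 ± 212. Each of these 5 overlapped its neighbour in that order, so neighbouring ranks are not set apart by the spread. Further apart, the lowest WT library of Slc38a10 (1638) lay above the highest of Slc7a14 (1613), Slc6a6 (1380) and Slc3a2 (1291). That of Slc7a2 (1397) lay above the highest of Slc6a6 and Slc3a2. The 6 genes held 65.1% to 68.1% of the level summed over the 38 genes in WT libraries.

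Of the 8 genes called higher, 5 ranked 21 or below in this order. Among 38 ranks by WT mean, Slc7a11 was the last, Slc7a3 at 33 and Slc1a1 at 32, with WT levels of 1.15 ± 0.789, 4.49 ± 2.85 and 5.18 ± 0.666. Slc38a5, at 326 ± 64.9 in WT and 897 ± 187 in KO, moved from rank 11 to rank 7, and Slc7a3 from rank 33 to rank 23. Slc38a10 went the other way, from rank 2 to rank 5. Its KO level of 1245 ± 128 was close to those of Slc6a6 (1246 ± 57.4) and Slc7a14 (1239 ± 140), which the spread does not set apart. Slc3a2, which was not called, moved from rank 6 to rank 3. Its KO level of 1309 ± 89.4 was close to those of Slc7a2 (1342 ± 133) and Slc6a6, which the spread does not set apart. The level summed over the 38 genes was 14795 to 15807 in WT libraries and 14870 to 15656 in KO libraries, the KO range lying within the WT range.

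**Figure D4:**
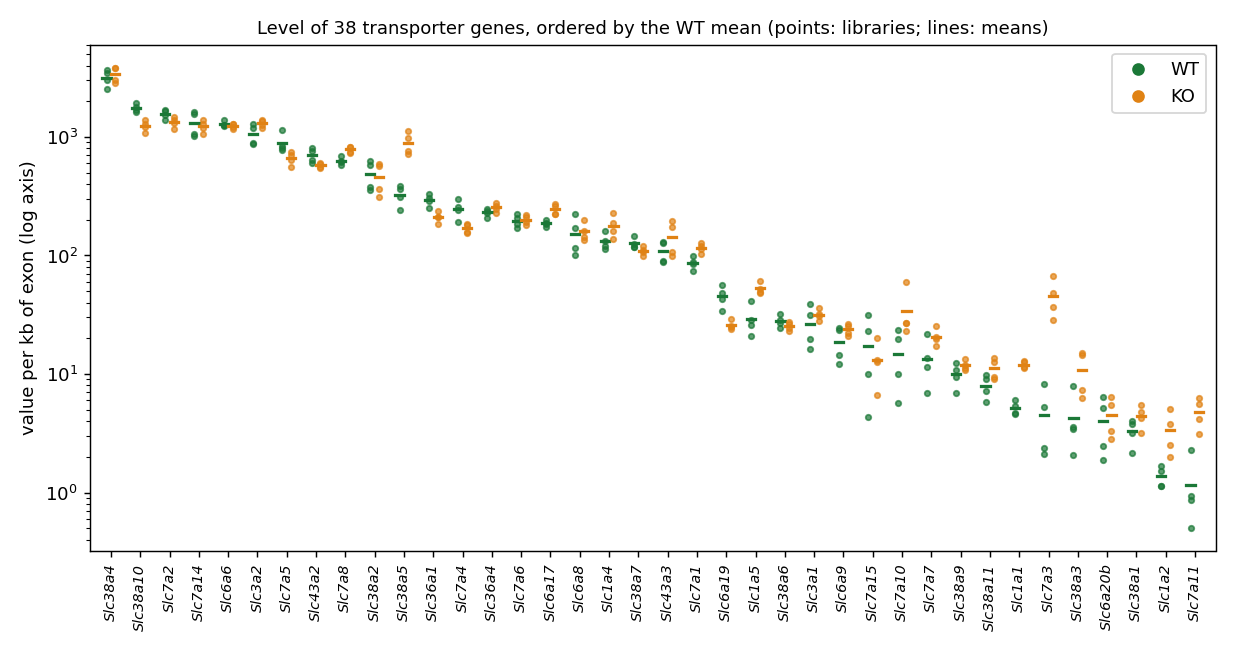
Level per kb of exon (log axis) of the 38 transporter genes, ordered by the WT mean, with points for single libraries and lines for the means of 4 WT and 4 KO libraries. Slc7a3, Slc7a11 and Slc1a1, all called higher in KO, lie among the last 7 genes of the order, and Slc38a5 at rank 11.

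The library sets were also compared with genotype in the model, since they stood apart. Of the 38 transporter genes 5 were higher in libraries 3 and 4 than in 1 and 2, and 3 lower, where 9.38% and 6.06% of all genes were. Slc38a2 differed most clearly, with 3364 and 3125 in WT and 3218 and 2772 in KO in libraries 1 and 2, and 5580 and 5168 in WT and 5220 and 5044 in KO in libraries 3 and 4 (log2 difference of 0.75 ± 0.07, adjusted p = 1.41e-04). The others higher in libraries 3 and 4 were Slc43a3, by 0.68, Slc6a8, by 0.60, Slc38a4, by 0.38, and Slc3a2, by 0.33 on the log2 scale. Lower there were Slc7a14, Slc6a20b and Slc7a15, with log2 differences of -0.43, -1.16 and -1.36. The count of higher genes was 3 without WT replicate 2. None of these 8 genes was among the 12 called between labels. That fit has no term for the library set, so a spread between sets counts against a call. With the set as a term, Slc3a2 and Slc43a3 were called higher in KO (limma-trend, adjusted p = 0.0156 and 0.0153). The immediate early genes moved with the library sets, as did 11 of 15 macrophage markers (summed value 6055 to 9255 in libraries 1 and 2 and 12683 to 17654 in libraries 3 and 4, with no marker at 0) and 9 of 14 stellate markers, all higher in libraries 3 and 4, and their part in these differences was not tested.

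**Figure D5:**
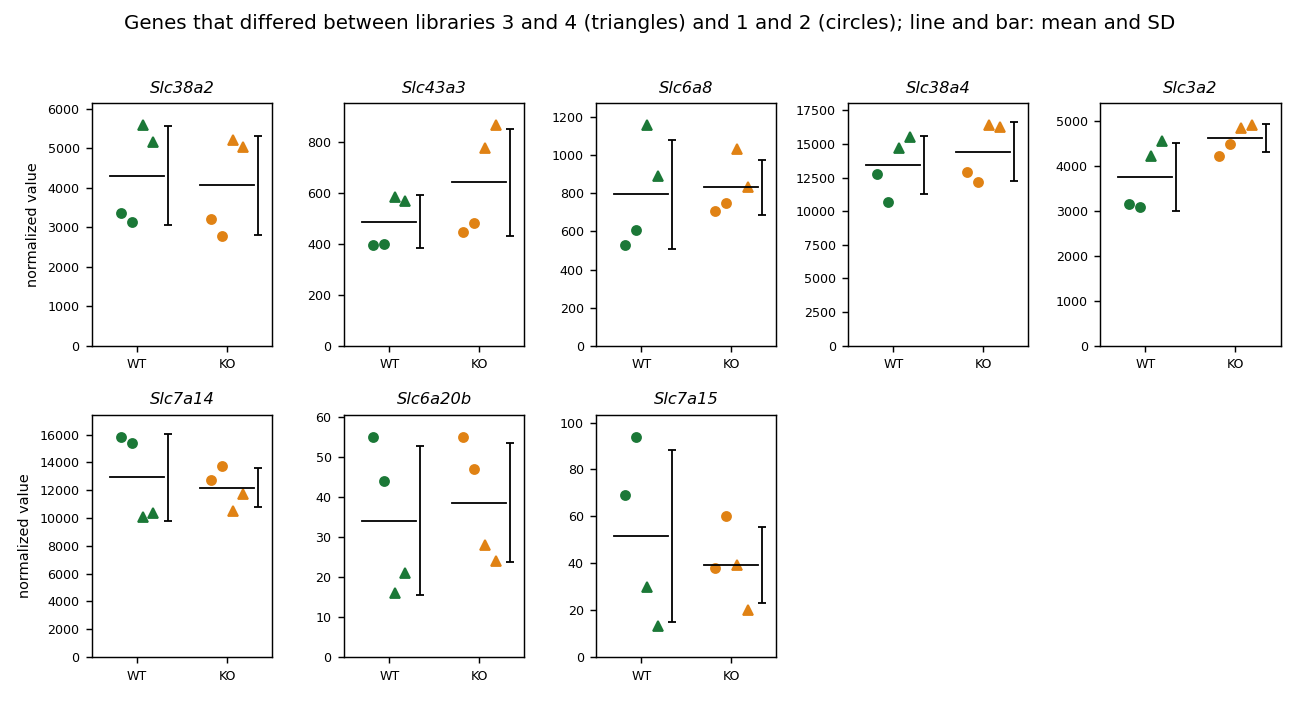
Normalized value of the 8 transporter genes that differed between library sets, in 4 WT and 4 KO libraries, with circles for libraries 1 and 2, triangles for 3 and 4, a line for the mean and a bar for the SD. For Slc38a2 the triangles lie at 5044 to 5580 and the circles at 2772 to 3364, over both groups.

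No transporter gene had a difference between labels that itself differed between library sets after adjustment (limma-trend interaction, 0.0991% of all genes called). At an unadjusted p under 0.05 there were 7 of the 38, where the share over all genes was 18.8%.

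Of 19 measured amino acid carriers outside these families, those of peptides, mitochondria and lysosomes among them, 3 were higher, 4 lower and 12 not called (11.1% and 9.81% of all genes were higher and lower), with a median log2 fold change of -0.04. Slc15a1, encoding the gut peptide carrier PEPT1, had 14, 12, 9 and 13 in WT and 67, 63, 47 and 52 in KO (log2 fold change of 2.17 ± 0.30, adjusted p = 0.00150). Slc16a10, encoding the aromatic amino acid carrier TAT1, and Sfxn5 were the other 2 higher genes (0.47 and 0.44). Sfxn2, of a mitochondrial family that includes serine carriers, fell from 1444 ± 175 to 749 ± 71.1 (SD, n = 4 per group), or -0.94 ± 0.11 on the log2 scale. Slc25a29 and Slc25a38, encoding mitochondrial carriers of basic amino acids and glycine, fell by 0.68 and 0.53, and Ctns, encoding the lysosomal cystine exporter, by 0.65 on the log2 scale.

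Among partners and regulators of the carriers, a list not reported in full and so given without a count, Tmem27, encoding collectrin, a protein that helps B0AT1 reach the cell surface, had 15561, 14892, 14154 and 16472 in WT and 21582, 20144, 21920 and 21362 in KO (log2 fold change of 0.48 ± 0.08, adjusted p = 0.00290), whereas Slc6a19 fell. Tmem27 is also on the list of alpha cell markers given above, and the part of alpha cells in its gain was not tested. Cd44, whose product binds xCT, rose from 2924 ± 319 to 5977 ± 407, by 1.03 ± 0.09. Arrdc4, encoding an arrestin-like regulator, rose by 1.81 ± 0.11 and Cav1, encoding caveolin, by 0.53.

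Of 39 measured genes of the amino acid sensing branch of mTORC1, the kinase complex that couples amino acid supply to growth, 13 were lower and 2 higher, with a median of -0.24. Among all genes tested 9.81% were lower and 11.1% higher. Flcn, encoding folliculin, averaged 2093 ± 287 in WT and 966.5 ± 108 in KO (SD, n = 4 per group), lower by a log2 fold change of -1.11 ± 0.12 at an adjusted p of 4.27e-04. Rragd, encoding the Rag GTPase D that recruits mTORC1 to lysosomes, fell by 0.95. The higher genes were Sesn2, encoding the leucine sensor sestrin 2 and an ATF4 target, by 0.84 ± 0.15, and Rragb, by 0.49.

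Among 29 measured genes of the ATF4 axis 6 were higher, with a median of 0.08, where 11.1% of all genes were higher. With the replicate block 8 were higher and 1, Atf4 itself, lower (14.2% and 11.7% of all genes). Stc2, encoding stanniocalcin 2, had 73, 59, 77 and 56 in WT and 253, 193, 297 and 327 in KO. Phgdh, encoding the first enzyme of serine synthesis, rose from 151 ± 28.9 to 385.5 ± 28.5, by 1.36 ± 0.15, and Trib3, a pseudokinase gene, by 2.08 ± 0.43. In libraries 3 and 4, 9 of the 29 were higher than in libraries 1 and 2, against 9.38% of all genes. Of 22 genes of cysteine and glutathione metabolism, the use of cystine carried by xCT, 2 were higher and 3 lower, near the shares over all genes. The higher were Cdo1, which oxidises cysteine, by 1.34, and Gclc, the first enzyme of glutathione synthesis, by 0.62. Cbs, which makes cystathionine from homocysteine, fell by 1.23, Nqo1, an NRF2 target, by 0.90 and Ggt7 by 0.76 on the log2 scale.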

How the data were processed

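Bulk RNA sequencing of islets gave 4 WT and 4 KO libraries. Per the submitters' processing notes the authors used the read converter bcl2fastq 2.20, the aligner STAR 2.5.3a, the quantifier RSEM 1.2.31 and, for testing, edgeR 3.16.15, on GRCm38.p5. The deposited values are a score in no fixed unit: per the file headers and the values they are normalized counts, rounded to whole numbers by the authors, with a median ratio to the average library of 0.994 to 1.008. The deposited table also holds the authors' edgeR log2 fold changes, a likelihood ratio score and p-values with their FDR. Whole reads could not be recovered from the values, so no count model was run.

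The 8 libraries were tested on log2(value + 1) with limma 3.58.1 (R 4.3.3; trend, empirical Bayes) on 14121 of 14126 genes, those that reached 1 in 4 or more libraries, all 40 members included. P-values were adjusted by Benjamini-Hochberg over all genes, with a threshold of 0.05, and the pipeline was tested on simulated data. Fold changes on this scale understate those of low genes, and precision is that of the spread between 4 libraries. Ratios used two-sided exact permutation tests. Exon lengths and positions came from GENCODE M21 (14114 IDs matched), and promoter windows from RefSeq.

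The replicate block takes same-numbered WT and KO libraries as pairs, which is an assumption. Their deviations from the group means correlated at 0.327, 0.583, 0.664 and 0.381 for numbers 1 to 4 over 13081 genes with a mean value of at least 50. Correlations between libraries of unlike number were not computed. The library sets alone can give positive values, so this check cannot show pairing by number. The labels do not say what a number shares. The library sets, 1 and 2 against 3 and 4, were seen in the data and are no batch the labels name.

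The members and lists were chosen with earlier results of these data known. All values per library are given for Slc7a3, Slc7a11, Slc3a2, Slc3a1, each called member and the 3 uncalled members most abundant per kb, and up to 3 called genes of largest change per pathway list are named. Slc7a5, Slc38a2, 4430402I18Rik and further list genes, named to complete a count, were added after their values were seen. A gene of the list of partners and regulators is not reported here. Alternatives were another pseudocount, filter, scaling and moderation, a replicate block, the library set as a term, each set alone, an acinar covariate, each library left out and the authors' table. Leaving out libraries for the set comparison was chosen after seeing the data.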

Additional observations from a re-analysis of the deposited data

Results flagged for a closer look

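Of 80 sets of 4 values, 1 for each of the 40 members in each group, 3 held a value set apart from the other 3 by more than Dixon's 95% critical value for the gap over the range, where chance flags about 1 in 20, or 4. Slc6a6, the taurine carrier gene, had 11672 in WT replicate 3, against 10559 to 10726 in the other WT libraries (gap over range 0.85). Slc7a10, the Asc-1 gene, had 125 in KO replicate 4, against 49 to 57 in the other KO libraries (0.895). Slc7a5, the LAT1 gene, had 4252 in WT replicate 3, against 2883 to 3095 in the other WT libraries (0.845), and without that library its log2 fold change was -0.29.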

How the results depend on the processing

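The 8 transporter genes called higher became 13 with the library set as a term, 14 in the authors' deposited table and 4 with the acinar covariate, and 6 to 9 as single libraries were left out. The 4 called lower became 2 in libraries 3 and 4 alone and 3 to 5 without single libraries. Under a minimum mean value of 50, 7 were higher, since Slc7a11 was then not tested. Between library sets, 3 to 6 were higher without single libraries (3 without WT replicate 2). With the replicate block 12 were higher and 6 lower. A block could not be added to the comparison of library sets, since a set is made of whole numbers, and a paired sign test of 4 ratios cannot reach the threshold. Totals without hormone and mitochondrial genes left 8 higher and 4 lower, while 63.2% of calls over all genes were higher, against 53.0%.

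Direction changed only for members that were not called and for 1 ratio that was near 0. In libraries 1 and 2 alone, the log2 fold change was 0.0391 for Slc6a6 and -0.0807 for Slc7a6. In libraries 3 and 4 alone, it was -0.13 for Slc6a8, 0.48 for Slc7a15 and 0.12 for Slc7a14. With the acinar covariate, it was -0.34 for Slc6a8, 0.55 for Slc7a15, -0.10 for Slc38a4, -0.0265 for Slc7a6, -0.0679 for Slc7a6os and 0.23 for Slc7a14. Without single libraries, the range was -0.0557 to 0.32 for Slc6a8, -0.65 to 0.27 for Slc7a15, -0.23 to 0.0739 for Slc38a2, -0.0293 to 0.54 for Slc6a20b, -0.0307 to 0.10 for Slc7a6, -0.0156 to 0.0914 for Slc7a6os, -0.17 to 0.0496 for Slc7a14 and -0.0984 to 0.0924 for the ratio of Slc7a8 to Slc3a2. The cause was not tested. Depth is unknown, and the widest standard errors, 0.45 to 0.61 on the log2 scale, were those of Slc7a3, Slc7a11, Slc6a20b, Slc38a3, Slc7a10 and Slc7a15.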

Other observations

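Enzymes and receptors that use what these carriers bring in were measured alongside them. Of 19 genes of branched-chain amino acid breakdown, the fate of leucine, isoleucine and valine after uptake through LAT1 and related exchangers, 8 fell and 1 rose (limma-trend, adjusted p under 0.05), with a median log2 fold change of -0.31. Among all genes tested 9.81% fell and 11.1% rose. The gene that rose was Bcat1, the cytosolic aminotransferase, with 3, 3, 14 and 7 in WT and 39, 27, 65 and 62 in KO (log2 fold change of 2.81 ± 0.56, adjusted p = 0.00831). Its mitochondrial counterpart Bcat2 fell from 507, 443, 457 and 336 in WT to 211, 263, 252 and 237 in KO (log2 fold change of -0.84 ± 0.14, adjusted p = 0.00397). Ivd, encoding isovaleryl-CoA dehydrogenase of leucine breakdown, fell by 0.81 on the log2 scale. The same 8 and 1 were the counts with the replicate block (11.7% and 14.2% of all genes) and in the authors' deposited table (13.1% and 16.2%).

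Of 20 measured genes of glutamate and GABA handling 7 rose and 3 fell, with a median of 0.13, where 11.1% and 9.81% of all genes did. Gad1, encoding an enzyme that makes GABA from glutamate, had 3571, 2760, 3549 and 2716 in WT and 988, 627, 1065 and 1079 in KO (log2 fold change of -1.76 ± 0.18, adjusted p = 4.27e-04). Abat, which breaks GABA down, and Grin1, an NMDA receptor subunit gene, were the other 2 that fell, by 0.83 and 1.33. Among those that rose were Grik2 and Gria2, glutamate receptor subunit genes, by 1.58 ± 0.28 and 1.47 ± 0.15. In the arginine and polyamine list of 18 genes 3 rose and 2 fell, with a median of 0.03 (11.1% and 9.81% of all genes). With the replicate block the counts were 5 and 3 (14.2% and 11.7% of all genes). Gatm, the first enzyme of creatine synthesis, rose from 421 ± 104 to 896 ± 212 (SD, n = 4 each), Arg1, which splits arginine, from 904 ± 67.5 to 1892 ± 724, and Oat, ornithine aminotransferase, from 723 ± 78.0 to 1230.0 ± 165. Oaz1, whose product restrains ornithine decarboxylase, and Srm, spermidine synthase, fell by 0.58 and 0.49. Beta and alpha cell marker lists moved with the labels as well, and their part in these differences was not tested.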
